A study of Mus musculus with 2 samples.

Results

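The interferon response genes measured here were 90 mouse genes on 138 probes, of 16593 genes on 23978 probes with a gene symbol. Members were found by their gene symbol. Taken were the interferon genes and receptor chains whose symbols start with Ifna, Ifnb or Ifng, the Irf and Stat transcription factors, and the families Ifi, Ifit, Ifitm, Oas, Gbp and Isg, with Ifih1, Usp18, Ddx58, Dhx58, Rsad2, Mx1, Mx2 and Rtp4. The choice by symbol also took the Irf2-binding proteins Irf2bp1 and Irf2bpl, which are named for their partner and are not induced members of the system. RNA came from Med1cKO mice, whose Med1 gene was deleted by Cre under the keratin 14 (Krt14) promoter, and from CON littermates without Cre. Med1 encodes a part of Mediator, which links transcription factors to RNA polymerase. Both genotypes carried MED1 fl/fl, and the strain label names C57BL6 for CON while that of Med1cKO names only the allele and Cre. The labels record no age. Back skin keratinocytes of 3 mice per genotype were pooled, the integrin alpha6 positive, CD34 negative cells were sorted, and each pool was hybridized to 1 Illumina bead array. This origin follows the sample source, cell type label and design text, whereas other protocol fields describe whole skin RNA.

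Interferons are cytokines that cells release on sensing viral or other nucleic acid. Type I interferons act through the receptor chains Ifnar1 and Ifnar2, and type II interferon through Ifngr1 and Ifngr2. The receptors switch on Stat factors, which with Irf9 enter the nucleus and bind interferon-stimulated response elements or gamma-activated sequences in front of the induced genes. Those genes encode antiviral effectors and also brakes such as Usp18. Keratinocytes carry both receptor types and respond to both.

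Of the 90 genes, 40 (44.4%) were detected on at least 1 array, at a detection p below 0.01 against the negative control beads of that array, and 32 on both. Over all genes of the array 7955 of 16593 (47.9%) were detected. Among the 40, 3 genes reached 2-fold higher in the Med1cKO pool (7.5%, where 3.95% of all detected genes did). Another 3 reached 2-fold lower (7.5%, where 1.81% of all detected genes did). The higher genes were Oasl2, Isg15 and Oas1d, and the lower genes Ifitm6, Irf4 and Usp18. At 1.5-fold, 5 were higher (12.5%, against 9.25% of all detected genes) and 4 lower (10%, against 8.28%), which added Gbp3 and Irf1 on the higher side and Stat5a on the lower. The median log2 ratio, Med1cKO over CON, was 0.02 over the 40 and -0.04 over all detected genes, with 21 of the 40 above 0 and 19 below. Of the 40, 6 were detected in Med1cKO only, all above 0, and 2 in CON only, each below 0. Detection on 1 array itself favours that sign. Over the 32 detected on both arrays the median was -0.08, and over all such genes -0.06. The family did not move as a block, and its differences lay in a few genes of opposite direction.

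Each genotype had 1 array, so replicate error is unknown, nothing was tested, and every difference compares these 2 pools only. Intensities below are as deposited. Ratios are after background correction and quantile normalization. The spread given beside a ratio is the robust SD of the ratios of genes of similar level, a spread between genes and not between replicates. Where only 1 array detected a gene, the fold is a bound against the lowest detected level of the other array. A probe had to reach an intensity of 239.2 to be detected on the CON array but only 219.4 on the Med1cKO array. In bulk RNA, fewer cells of a type and less RNA per cell cannot be told apart.

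The brightest Med1 probe had intensities of 452 in the Med1cKO pool and 794 in CON (1.996-fold lower in Med1cKO), and the probes cannot tell whether the deleted part is missing. All 10 keratinocyte markers were detected in both pools, with a median log2 ratio of -0.19. Among them Krt14 read 38429 in Med1cKO and 37038 in CON, and Krt10 read 34901 in Med1cKO and 34754 in CON. Itga6 read 939 in Med1cKO and 1056 in CON. Cd34 was detected in both pools, at 279 in Med1cKO and 321 in CON, although the sort was for CD34 negative cells. How fully the sort removed CD34 positive cells was not tested. Most detected markers of other skin cells were higher in Med1cKO. All 6 detected of 7 T cell markers were above 0, with summed intensities over the 7 of 11680.5 in Med1cKO and 7564 in CON, and Cd247 was not detected. Cd3e and Trat1 were detected in Med1cKO only, which favours a ratio above 0. Thy1 made up most of these sums, with 9092 in Med1cKO and 5975 in CON (1.53-fold higher). Cd3g and Cd3d, detected in both pools, were 2.74-fold and 2.37-fold higher. All 6 detected of 7 Langerhans and dendritic cell markers were above 0, with sums of 6518 in Med1cKO and 3351 in CON, and Itgax was not detected. Of 7 macrophage and neutrophil markers 3 were detected, Lyz1 and Lyz2 in Med1cKO only and S100a8 in both pools, with sums of 1759 in Med1cKO and 1299.97 in CON, and Ptprc, Adgre1, Itgam and S100a9 were not detected. Of 8 fibroblast markers 5 were detected, all above 0, with sums of 4999 in Med1cKO and 1952 in CON, and Col1a2, Pdgfra and Dpt were not detected. Col1a1, Col3a1, Dcn and Lum were detected in Med1cKO only, which favours a ratio above 0, and Fbln1 in both pools (log2 ratio 0.59). Of 6 endothelial markers only Egfl7 was detected, in Med1cKO only. Of 3 erythroid markers only Hba-a1 was detected, in both pools, with 2231 in Med1cKO and 492 in CON (log2 ratio 2.69). The part of these cells in the results below was not tested.

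**Figure D1:**
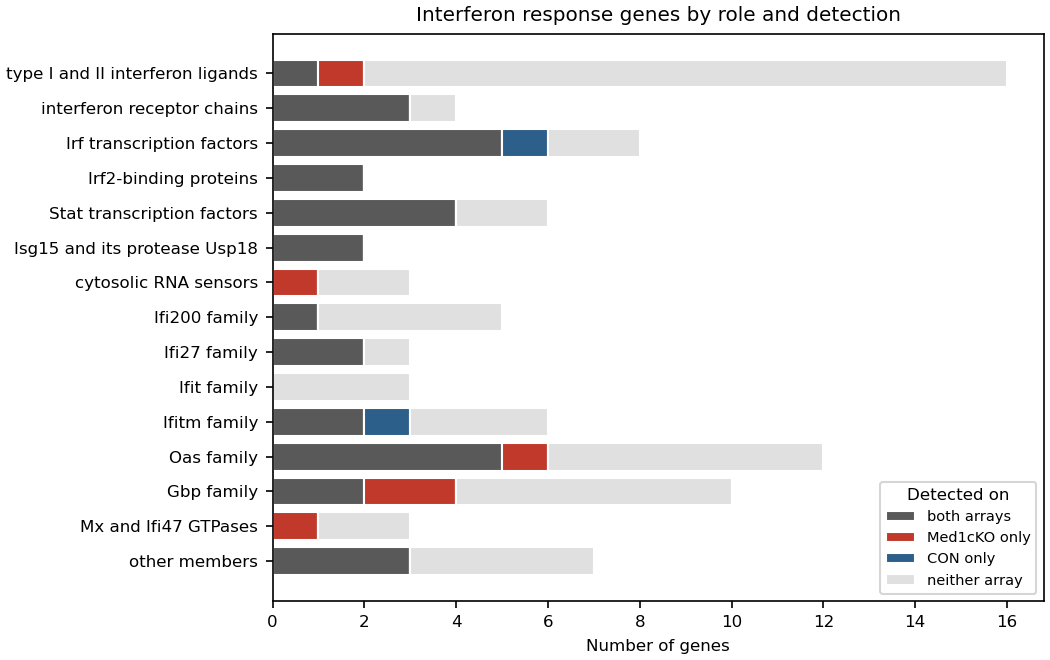
Number of interferon response genes in each role, split by the arrays that detected them (detection p below 0.01). Of 16 interferon genes 14, and all 3 Ifit genes, were detected on neither array, while both pools showed most receptor chains and transcription factors.

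The interferons themselves were almost all at background. Of 16 ligand genes, 14 were detected on neither array, among them Ifnb1, with intensities of 149.7 in Med1cKO and 165.5 in CON, and Ifng, with 157 in Med1cKO and 153 in CON. Ifna6 was detected on both arrays by a probe with 308 in Med1cKO and 334 in CON (log2 ratio -0.13), but its other probe read 141 in Med1cKO and 142 in CON and was not detected. Ifna1 read 226 in Med1cKO and 203 in CON and was detected in Med1cKO only. That value lies under the lowest detected intensity of the CON array, so no fold can be given. The Ifna genes are near-identical copies, and which of them a probe reads is uncertain.

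Of 4 receptor chains 3 were detected, each in both pools. Ifngr1, the ligand-binding chain for type II interferon, had intensities of 3210.1 in Med1cKO and 3802 in CON (log2 ratio -0.20, spread 0.29). Ifngr2, its signalling partner, had 782 in Med1cKO and 616 in CON (0.52, spread 0.40), while its other probes had 0.22 and -0.00028. Ifnar2 was near the detection limit, with 221 in Med1cKO and 252 in CON (-0.37, spread 0.97), and another probe, detected in Med1cKO only, had 0.05. Ifnar1 read 145 in Med1cKO and 146 in CON and was not detected. Only the brightest Ifngr2 probe exceeded the spread of similar genes among these chains.

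Irf1 was higher in Med1cKO by every probe. This transcription factor is induced by type II interferon and by inflammatory signals and switches on many interferon-responsive genes. Its brightest probe had an intensity of 10739.8 in Med1cKO and 6367 in CON, 1.70-fold higher (log2 ratio 0.77, 3.28 times the spread of similar genes). The other probes read 3894 in Med1cKO against 2062 in CON (2.04-fold), 1118 in Med1cKO against 628 in CON (2.16-fold) and 879 in Med1cKO against 573 in CON (1.83-fold). The fifth read 233 in Med1cKO and 191 in CON and was detected in Med1cKO only. All 5 probes were brighter in Med1cKO, and the 4 detected in both pools lay on both sides of 2-fold. Irf1 ranked 493 from the top among 7955 genes by its brightest probe. Probes of 1 gene share the same RNA and are not replicates.

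The stretch before the Irf1 start site is shown because it holds a gamma-activated sequence match (TTCNNNGAA, capitals), which begins at position -90 from the start. It is the first of 2 starts in the table, and the other window holds no match. The sequence is from RefSeq, build GRCm38.p6, chr11:53769764-53770013, plus strand.
Irf1: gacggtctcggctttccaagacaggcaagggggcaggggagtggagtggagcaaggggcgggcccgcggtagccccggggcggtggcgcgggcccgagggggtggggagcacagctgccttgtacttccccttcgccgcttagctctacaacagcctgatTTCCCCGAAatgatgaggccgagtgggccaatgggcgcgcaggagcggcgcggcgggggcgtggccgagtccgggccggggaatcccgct

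Irf4 lay at the other end. It is a factor of lymphocytes, dendritic cells and pigment cells. Its single probe read 196.2 in Med1cKO, not detected, and 426 in CON, at least 3.63-fold lower in Med1cKO (measured log2 ratio -2.38, spread 0.55). The bound ranked 21 from the bottom of 7955 genes. Without background correction it was at least 1.87-fold lower. The detected T cell and dendritic cell markers went the other way, as given above. The part of such cells in the Irf4 ratio was not tested. Of 6 melanocyte markers only Dct was detected, in Med1cKO only, at 226 against 175 in CON, and the other markers of that list were at background in both pools.

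The remaining Irf genes differed little. Irf2, a repressor of Irf1 targets, had intensities of 3922 in Med1cKO and 4644 in CON (log2 ratio -0.21). Irf3, which starts interferon transcription after nucleic acid sensing, had 4746 in Med1cKO and 5604 in CON (-0.21), and -0.12 and -0.43 by its other probes. Irf5, a factor of Toll-like receptor signalling, had 747 in Med1cKO and 703 in CON (0.19). Irf9, a DNA-binding partner of Stat2, had 1022 in Med1cKO and 958 in CON (0.19). By the brightest probe each of these ratios was smaller than the spread of similar genes. Irf7, which amplifies type I interferon, read 183 in Med1cKO and 157 in CON, and Irf8, a myeloid factor, 163 in Med1cKO and 175 in CON, and neither was detected. Irf2bpl had 0.35 and Irf2bp1 -0.35.

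Of 6 Stat genes 4 were detected, in both pools. Stat3, the factor of interleukin 6 type cytokines, was higher in Med1cKO by all 3 probes, with intensities of 4923 in Med1cKO and 3749 in CON for the brightest (log2 ratio 0.45, spread 0.29) and ratios of 0.59 and 0.16 for the others. Stat5a, a factor of prolactin and cytokine receptors, was lower, with 523 in Med1cKO and 798 in CON (log2 ratio -0.71, or 1.64-fold lower, spread 0.40), and -0.52 by its other probe. Stat3 and Stat5a are neighbours in the RefSeq gene order, and their ratios had opposite signs. Stat2, the type I interferon factor, had 305.3 in Med1cKO and 371 in CON (-0.42, spread 0.51), and Stat6, the interleukin 4 factor, had 685 in Med1cKO and 789.8 in CON (-0.19). Stat4 and Stat5b were not detected.

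**Figure D2:**
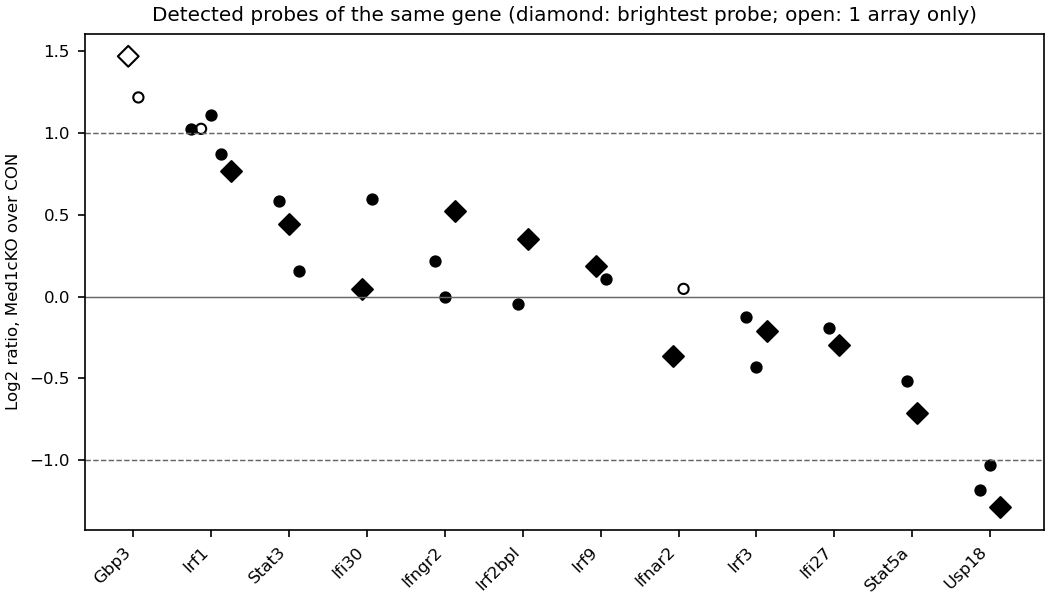
Log2 ratio (Med1cKO over CON) of each detected probe, for the interferon response genes with several detected probes, in order of ratio. Filled symbols are probes detected on both arrays, open ones on 1 array, and diamonds the brightest probe. The Irf1 probes all lie above 0.7 and the Usp18 probes all below -1.0, while those of Ifngr2, Irf2bpl and Ifnar2 fall on both sides of 0.

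Several probes were detected on both arrays for 10 genes. In 8 of them all such probes lay on 1 side of 0, and Ifngr2 and Irf2bpl did not. For Ifi30 the probes shared a sign but had 0.05 and 0.60.

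Isg15 and Usp18 differed in opposite directions. Isg15 is a small ubiquitin-like protein that is attached to other proteins after interferon. Usp18 is the protease that removes Isg15 from them and also shuts down the type I interferon receptor. Isg15 read 442 in Med1cKO and 293 in CON, 2.20-fold higher (log2 ratio 1.14, spread 0.51), or 1.57-fold without background correction. Usp18 had intensities of 1389 in Med1cKO and 3324 in CON by its brightest probe, 2.44-fold lower (log2 ratio -1.29, spread 0.32). Its other probes read 875 in Med1cKO against 1895 in CON (2.27-fold lower) and 342 in Med1cKO against 566 in CON (2.04-fold lower). All 3 Usp18 probes were past 2-fold and detected in both pools. Without background correction Usp18 was 2.29-fold lower. It ranked 62 from the bottom of 7955 genes. Its neighbour genes in RefSeq order, Tuba8 and Slc6a13, had a log2 ratio of 0.41 and no detection on either array.

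The stretch before the Isg15 start site is shown for its run of overlapping interferon-stimulated response element matches (GAAA, any 2 bases, GAAA; capitals), which begin at positions -78, -72 and -66 from the start. The sequence is from RefSeq, build GRCm38.p6, chr4:156200819-156201068, minus strand.
Isg15: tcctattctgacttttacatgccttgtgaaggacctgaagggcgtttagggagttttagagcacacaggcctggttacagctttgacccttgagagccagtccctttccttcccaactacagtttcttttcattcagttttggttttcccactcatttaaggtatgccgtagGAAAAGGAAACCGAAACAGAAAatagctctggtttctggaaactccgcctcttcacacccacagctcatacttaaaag

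Several classical inducible effectors and the RNA sensors Ifih1 and Dhx58 were not detected. Over all genes of the array, 8638 of 16593 were detected on neither array. Such absence was not general, since 29 of 46 further induced effectors and 15 of 21 nucleic acid sensing genes, given below, were detected. The Ifit proteins bind foreign RNA and are among the strongest interferon-induced genes. Ifit1 read 147 in Med1cKO and 157 in CON, Ifit2 159 in Med1cKO and 175 in CON, and Ifit3 164 in Med1cKO and 186 in CON, none of them detected. Rsad2, the antiviral enzyme viperin, read 179 in Med1cKO and 156 in CON, and Mx1, an antiviral GTPase, 169 in Med1cKO and 174 in CON. Rtp4 read 191 in Med1cKO and 159 in CON, and Ifi44l read 161 in Med1cKO and 157 in CON. None of these was detected either. Of the cytosolic RNA sensors, Ifih1 (MDA5) read 169 in Med1cKO and 165.2 in CON and Dhx58 (LGP2) 195 in Med1cKO and 181 in CON. Ddx58 (RIG-I) was detected in Med1cKO only, with 252 against 189 in CON, at least 1.25-fold higher. All 50 members detected on neither array had intensities of 141 to 204 in Med1cKO and of 140.3 to 224 in CON. For these genes a difference was not detectable on these arrays, which does not show that they are silent.

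The stretches before the start sites of Ifit1 and Ifit3 are shown because each holds a pair of interferon-stimulated response element matches (capitals, on the opposite strand, so that they read TTTC, any 2 bases, TTTC), although neither gene was detected. The matches begin at positions -104 and -85 for Ifit1 and at -156 and -122 for Ifit3. Both are from RefSeq, build GRCm38.p6, plus strand, at chr19:34640639-34640888 for Ifit1 and chr19:34583279-34583528 for Ifit3.
Ifit1: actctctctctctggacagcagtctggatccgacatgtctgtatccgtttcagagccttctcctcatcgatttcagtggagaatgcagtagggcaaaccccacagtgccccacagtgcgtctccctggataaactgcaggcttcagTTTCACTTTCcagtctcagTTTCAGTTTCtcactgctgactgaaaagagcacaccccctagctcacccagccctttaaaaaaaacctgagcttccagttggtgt
Ifit3: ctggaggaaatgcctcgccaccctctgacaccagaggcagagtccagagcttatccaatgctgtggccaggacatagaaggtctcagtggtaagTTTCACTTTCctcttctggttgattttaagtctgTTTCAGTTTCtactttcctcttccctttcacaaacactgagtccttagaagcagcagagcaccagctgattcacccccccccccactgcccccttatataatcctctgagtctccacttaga

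RefSeq promoter windows, from 250 bases before to 50 after each gene's start, were matched by gene ID for 71 of the 90 members (83 windows). The response element, GAAA with any 2 bases and GAAA, searched on both strands, was in 39.8% of member windows and 3.44% of all 32851 windows. The gamma-activated sequence TTCNNNGAA, which reads the same on both strands, was in 28.9% of member windows and 8.30% of all. Both motifs overlapped in 1 member window. Of 33 members with the response element 14 were detected (42.4%), with a median log2 ratio of -0.11, against 20 of 38 without it (52.6%), with a median of 0.02. Taking bounds for 1-array genes, the 14 ran from -0.42 for Stat2 to 1.14 for Isg15. Of 24 members with the gamma-activated sequence 10 were detected, with a median of -0.06, against 24 of 47 without it, with a median of -0.02. Members with and without each motif thus had medians near 0. A match is a description of letters in the window, not a binding site.

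**Figure D3:**
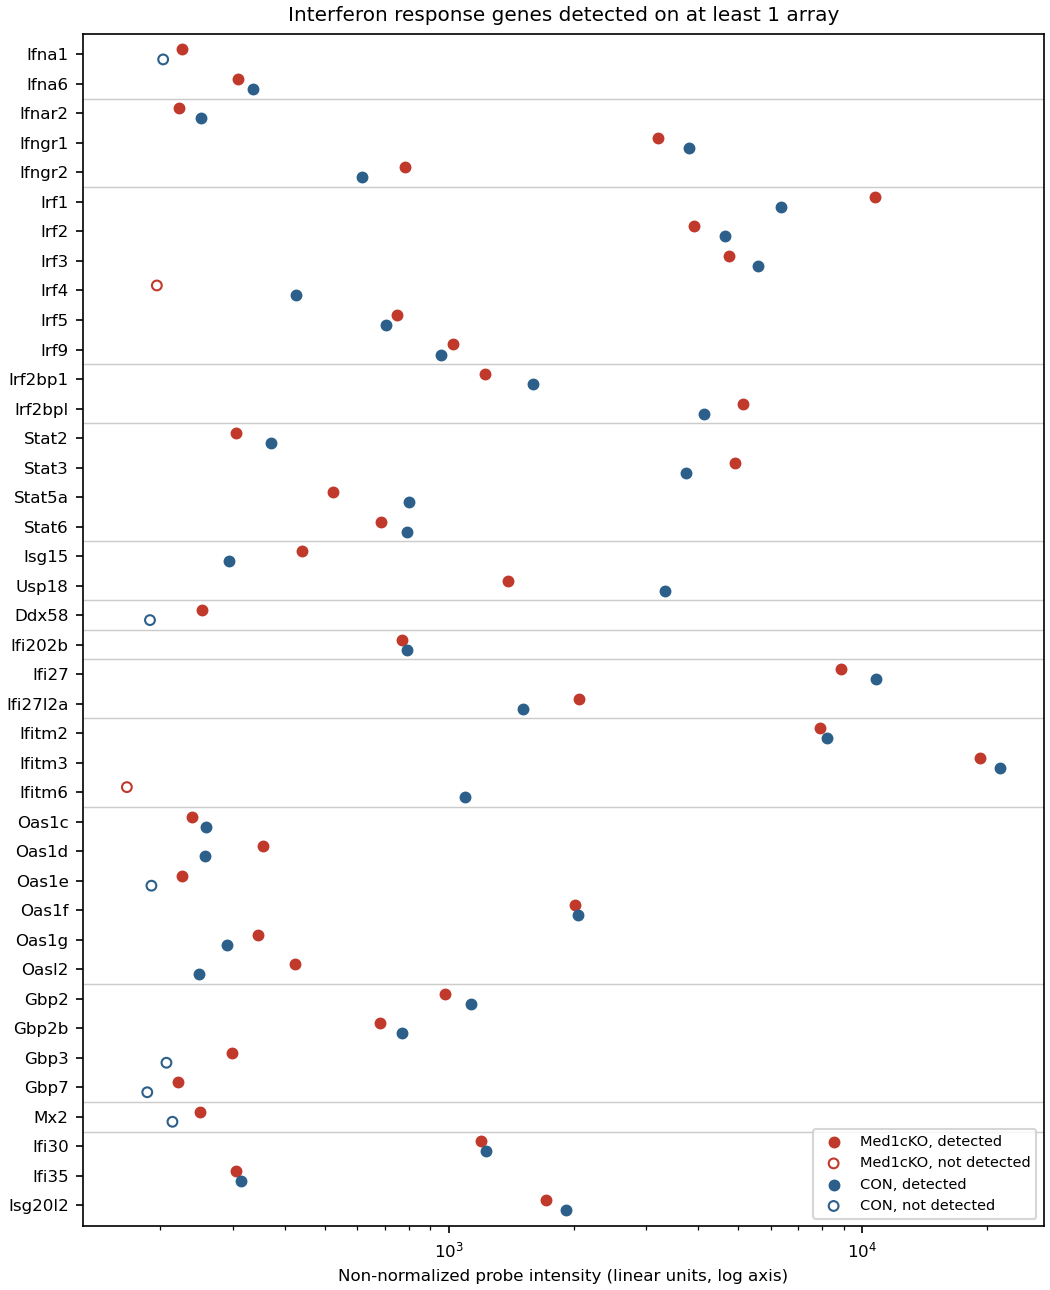
Deposited intensities (log axis) of the 40 interferon response genes detected on at least 1 array, by their brightest probe, in the Med1cKO pool (red) and the CON pool (blue), in order of role. Open circles are values not detected. Ifitm6, Irf4 and Usp18 are separated with Med1cKO to the left, and Irf1, Isg15 and Oasl2 with Med1cKO to the right.

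The Ifitm family, small membrane proteins that block virus entry, held the lowest ratio of all members. Ifitm3 had intensities of 19295 in Med1cKO and 21535 in CON (log2 ratio -0.14), and Ifitm2 had 7877 in Med1cKO and 8218 in CON (-0.08, or 0.04 under median scaling). Ifitm6 read 166 in Med1cKO, not detected, and 1094 in CON, at least 12.5-fold lower in Med1cKO (measured log2 ratio -4.84, spread 0.51). This bound was the lowest of all 7955 detected genes, and without background correction it was at least 4.77-fold lower. Ifitm6 has 1 probe, so no other probe bears on it. In RefSeq order it lies between Ifitm3 and B4galnt4, which was not detected. Ifitm1, Ifitm5 and Ifitm10 were not detected. Ifitm6 is known from mouse macrophages. The macrophage markers Adgre1, Itgam and Ptprc were at background in both pools, while others of that list were detected. Lyz1 read 555 in Med1cKO and 167 in CON (at least 4.92-fold higher), Lyz2 read 246 in Med1cKO and 149 in CON (at least 1.18-fold higher), and S100a8 read 280.3 in Med1cKO and 353 in CON (log2 ratio -0.55). The Lyz1 and Lyz2 values thus ran opposite to Ifitm6. S100a8, the only marker of that list detected in both pools, was lower in Med1cKO, as was Ifitm6. The part of these cells in the Ifitm6 ratio was not tested.

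The stretch before the Ifitm6 start site is shown as that of the member with the lowest ratio, with a gamma-activated sequence match (capitals) that begins at position -10 from the start. The sequence is from RefSeq, build GRCm38.p6, chr7:141016893-141017142, minus strand.
Ifitm6: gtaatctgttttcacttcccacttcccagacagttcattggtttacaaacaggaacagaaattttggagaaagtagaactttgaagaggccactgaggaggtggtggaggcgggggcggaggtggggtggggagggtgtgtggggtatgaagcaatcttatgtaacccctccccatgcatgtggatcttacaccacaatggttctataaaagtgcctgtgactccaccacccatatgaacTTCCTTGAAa

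The Oas family, which includes enzymes that sense viral RNA and activate RNA decay, had most of its detected members above 0. Of 12 members 6 were detected, 5 of them above 0 (83.3%, against 45.6% of all detected genes), 2 at least 2-fold higher (33.3%, against 3.95%) and none lower. The 5 include Oas1e, which was detected in Med1cKO only, and such detection itself favours a ratio above 0. The median log2 ratio was 0.55 over the 5 detected on both arrays, and 0.30 over the 6 with Oas1e at its bound. Oasl2, an Oas-like protein, read 425 in Med1cKO and 248 in CON, 3.03-fold higher (log2 ratio 1.60, spread 0.51), the highest ratio of the members detected on both arrays. Oas1d read 354 in Med1cKO and 257 in CON, 2.05-fold higher (1.04, spread 0.55), and Oas1g 344 in Med1cKO and 290.4 in CON (0.55, spread 0.51). All 3 were close to background in CON, and without background correction they were 1.78-fold, 1.43-fold and 1.22-fold higher. Each had at least 1 other probe that was not detected. Oas1f, far above background, had 2019.5 in Med1cKO and 2054 in CON (0.05), and Oas1c had -0.17. Oas1e, at 225 in Med1cKO and 190.3 in CON, was detected in Med1cKO only with no fold to give. Oas1a, Oas1b, Oas1h, Oas2, Oas3 and Oasl1 were not detected. The Oas1 genes are close copies, so their probes may read each other's RNA.

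Of 10 Gbp genes, which encode guanylate-binding proteins that attack intracellular pathogens and are induced mainly by type II interferon, 4 were detected. Gbp2 had intensities of 979.7 in Med1cKO and 1128 in CON (log2 ratio -0.16), and Gbp2b had 682 in Med1cKO and 769 in CON (-0.14). Gbp3 was detected in Med1cKO only, with 297 against 207 in CON, at least 1.79-fold higher, and its other probe, at 269 in Med1cKO and 204 in CON, was also detected in Med1cKO only. Gbp7, next to Gbp3 in RefSeq order, read 220.1 in Med1cKO and 186 in CON, detected in Med1cKO only with no fold to give. The members far above background were thus near equal, and those detected in Med1cKO only lay near the detection limit. Mx2, an antiviral GTPase, was detected in Med1cKO only, at 249 against 214 in CON, at least 1.21-fold higher, and Ifi47, a further interferon-induced GTPase, was not detected.

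By the brightest probe, of the remaining detected members only Ifi27 and Ifi27l2a had ratios beyond the spread of similar genes. Ifi27, a small hydrophobic protein of intracellular membranes, had intensities of 8895 in Med1cKO and 10771 in CON (log2 ratio -0.30), and -0.19 by its other probe. Ifi27l2a, its strongly inducible relative, had 2056 in Med1cKO and 1511 in CON (0.56, spread 0.32). Ifi30, a lysosomal thiol reductase of antigen processing, had 1196 in Med1cKO and 1230.2 in CON (0.05), Ifi35, a regulator of innate signalling, 305.0 in Med1cKO and 314 in CON (0.01), and Isg20l2, a nuclease of ribosome formation, 1716 in Med1cKO and 1913 in CON (-0.08). Ifi202b, a DNA-binding protein of the Ifi200 family, had 767 in Med1cKO and 789 in CON (0.03), although its other probes were not detected, and Ifi204, Ifi205, Ifi209, Ifi214, Ifi27l2b and Isg20 were not detected.

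**Figure D4:**
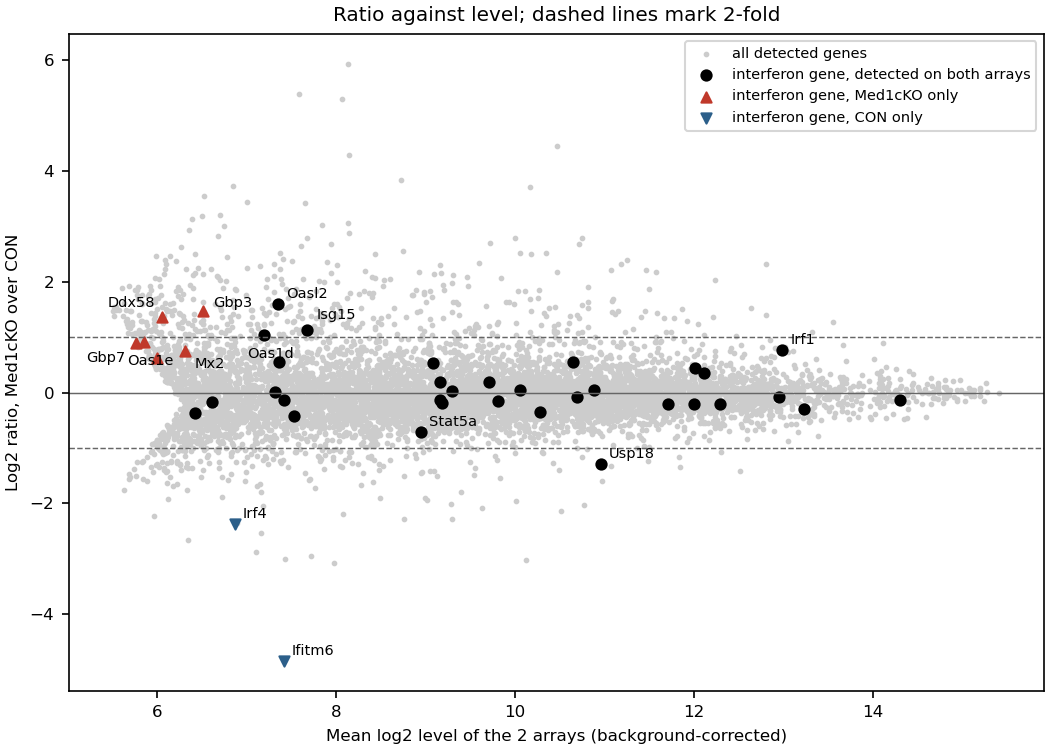
Log2 ratio (Med1cKO over CON) against the mean background-corrected log2 level of the 2 arrays, for all 7955 detected genes (grey) and the 40 interferon response genes (colours by detection). Dashed lines mark 2-fold, and genes detected on 1 array are drawn at their measured ratio, not their bound. Irf1 and Usp18 stand out at high level, while Oasl2, Isg15, Oas1d, Gbp3 and Ddx58 lie among the scattered ratios of dim genes.

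Among further genes of the pathway 2 of 55 detected differed by 2-fold or more in either direction (3.64%), near the 5.76% of all detected genes. These lists, like the members, were chosen with earlier results of these data known. Of 14 further receptors, kinases and signal inhibitors 11 were detected, none at least 2-fold different, with a median log2 ratio of -0.22 against -0.04 over all genes. Pias3, an inhibitor of Stat3, had the lowest ratio of the list (-0.62), followed by the phosphatase Ptpn6 (-0.46), the lambda interferon receptor chain Ifnlr1 (-0.39) and the kinase Tyk2 (-0.36), while the kinase Jak1 had 0.35.

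Of 21 genes of nucleic acid sensing and its adaptors 15 were detected, 1 of them 2-fold or more higher and none lower, with a median of 0.07. The higher gene was Trex1, an exonuclease that clears cytosolic DNA, with intensities of 1146 in Med1cKO and 638 in CON (log2 ratio 1.12, spread 0.37). Without background correction Trex1 was 1.89-fold higher. Nfkbia and Tnfaip3, feedback inhibitors of NF-kB, had 0.81 and 0.69, and the kinase Ikbke, which acts on Irf3, had -0.83. Rnaseh2c, a subunit of ribonuclease H2, had 0.43.

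Of 46 further induced effectors 29 were detected, none of them 2-fold or more higher and 1 lower, with a median of -0.01. The lower gene was Parp12, an antiviral ADP-ribosyltransferase, with 267 in Med1cKO and 522 in CON (log2 ratio -1.58, spread 0.51), or 1.89-fold lower without background correction. The chemokines Cxcl9 and Cxcl10 were detected in Med1cKO only. Cxcl9 read 257 against 177 in CON and was at least 1.31-fold higher, and Cxcl10 read 226 in Med1cKO against 164 in CON with no fold to give. Helz2, a nuclear coactivator, had 0.73 and Daxx, a histone chaperone, 0.68.

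**Figure D5:**
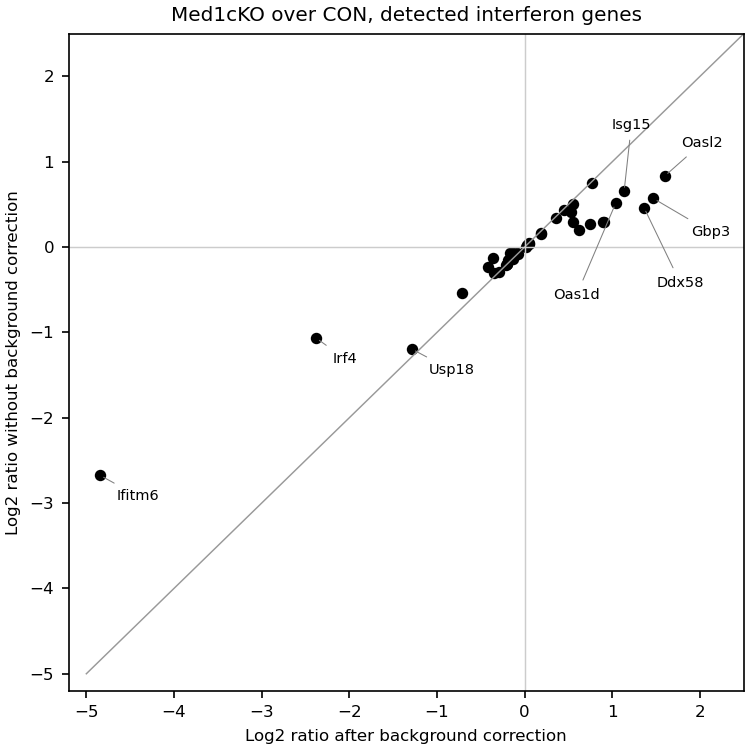
Log2 ratio (Med1cKO over CON) of the 40 detected interferon response genes after background correction (horizontal) and without it (vertical), with the line of equality and 1-array genes at their measured ratio. Usp18 lies near the line, while Ifitm6 and Irf4 and the dim genes Oasl2, Isg15, Oas1d, Gbp3 and Ddx58 lie nearer to 0 without the correction.

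Background correction set the size of the ratios of dim genes. Without it none of the 40 was at least 2-fold higher, and 2, Ifitm6 and Usp18, were at least 2-fold lower, since the bound for Irf4 was then under 2-fold. With the authors' normalized values these counts were the same.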

How the data were processed

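RNA of 1 pool of 3 mice per genotype was measured on 1 Illumina bead array each. The deposited intensity values are linear, not normalized between arrays and still hold the background, and the p-value beside each of them compares the probe with negative control beads, per the file headers. The submitters' processing notes list GenomeStudio 2011.1. A second deposited table holds intensity values normalized by the authors (medians 198.7 for Med1cKO and 198.4 for CON), by a method not given in the sources used here. Other protocol fields describe whole skin RNA of each mouse. The sorted, pooled origin follows the sample source, cell type label and design text.

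Intensities of all 25697 probes were processed with neqc of limma 3.58.1 in R 4.3.3 (background from the detection p-values, offset 16, quantile normalization, log2), and later steps with Python 3.11.15. A gene was represented by its brightest probe. All 90 member genes matched a RefSeq entry by Entrez ID with the same symbol (GRCm38.p6). Where only 1 array detected a gene, its dim value was raised to the lowest detected level of that array, and bounds under 1 are not given. The robust SD used 10 level bins. The number of arrays limits the precision. Scripts were tested on simulated data. Values in full are given for detected members at least 1.5-fold different for all detected Irf, Stat and Ifitm genes, for up to 4 of the brightest others per role, and per pathway list for up to 5 genes of largest ratio, further ones being chosen after their values were seen. The members, lists and tests were chosen with earlier results of these data known.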

Additional observations from a re-analysis of the deposited data

How the results depend on the processing

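The count of members at least 2-fold higher was 3. It was 0 without background correction and 0 with the authors' normalized values, 1 with an offset of 50, and 5 with no filter on detection, which adds Ddx58 and Gbp3 at their measured ratios. It was 3 or 4 under cyclic loess, median scaling, a detection p below 0.05, the mean of a gene's detected probes, and detection on both arrays. The count at least 2-fold lower was 3 and was 1, Usp18, among genes detected on both arrays, because Ifitm6 and Irf4 were detected in CON only. Under the other alternatives it was 2 or 3. The median log2 ratio of 0.02 was -0.081 over genes detected on both arrays, where that of all genes was -0.06, and it was 0 when 1-array genes took their bounds. Of 199 ratios of 23 named members under alternatives, 191 moved by less than the spread of similar genes, 8 moved by more (Ifitm6, Irf4 and Oasl2, all nearer to 0). The count of 191 is not a measure of stability. Another filter on detection leaves the ratio of a single gene unchanged by design. For dim genes the spread is wide, so Ddx58, at 1.36 and at 0.46 without background correction, counted as unmoved (spread 0.97). Ifitm2, at -0.08, changed sign to 0.04 under median scaling, where the median of all genes was 0.00. No paired analysis was possible because each genotype has 1 array. Genes near background, with intensities under about 239 in CON, are measured least well.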
